A study of Saccharomyces cerevisiae with 8 samples.

Results

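The wild-type (WT) transcriptome of budding yeast, Saccharomyces cerevisiae, in log phase at 31 °C was described from the 4 WT samples, lettered A to D, of the 8 samples of the series. They were taken by their label alone, with no measured value used, and the 4 others, which carry the mcd1-1 allele, were not used. All 4 came from a derivative of W303-1a, a laboratory background whose cells are haploid and of mating type a, and the label names neither an allele nor an agent. The cells had grown overnight in YPD, a rich medium with glucose, were diluted to an optical density (OD600) of 0.2 and grew for 2 more generations at 31 °C. Poly(A) RNA was sequenced, and the deposited values are read counts for 6596 gene models on the genome build R64. Nothing in the labels says whether A to D were separate cultures, so the spread between them may be technical. With 1 group there was no comparison to test, and the values below are means ± SD over n = 4 libraries or the values of A, B, C and D in that order. Levels are given as CPM, counts per 1000000 counts of a library, or, wherever genes are compared with each other, as CPM per kb of the model from start to end.

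Budding yeast given glucose ferments most of it to ethanol even in air. Its mRNA pool is then dominated by the enzymes of glycolysis and by the apparatus of translation, while genes for the use of other carbon sources are repressed by glucose. Many yeast genes exist as pairs of paralogs that descend from a duplication of the whole genome, and the members of such a pair can differ widely in expression. Highly expressed yeast genes are also known for their use of a small set of preferred codons, those read by abundant tRNAs.

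The libraries held 22331070, 25604790, 29761748 and 44217331 counts. Where a model has 0 counts, its true value may still reach 3 counts, which is 0.0678 CPM in D and 0.134 CPM in A. A gene at 10 CPM rested on 223 counts in A, with a 95% Wilson interval of 8.76 to 11.4 CPM, and on 442 counts in D. Such intervals and floors cover counting error only. Every pair of libraries differed by more than sampling noise, with a chi-square per degree of freedom of 11.7 for A and B, 35.6 for C and D, and 419.2 to 520.05 for the other 4 pairs. Over the 5811 models with a mean of at least 10 CPM, the SD of the log2 difference was 0.13 between A and B and 0.14 between C and D, against 0.63 to 0.68 for the other 4 pairs. Libraries A and B thus stood apart from C and D, and the labels name nothing that separates them.

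Gene length moved with this split. Over 4561 models with a RefSeq match, no near-identical copy and no overlap, the log2 difference between 2 libraries was ranked against model length across genes, which are not independent replicates. Spearman's rho was 0.64 to 0.67 for the 4 pairs across the split, 0.18 for B over A and 0.29 for D over C. Among the 439 models of up to 500 bp, the median level was 176 and 168 CPM per kb in A and B, against 114 and 108 in C and D. Among the 160 models over 4000 bp it was 17.9 and 18.4 in A and B, against 33.4 and 35.9 in C and D. Models of 1001 to 1500 bp had medians of 57.7 to 62.7 in all 4. A difference in level between a short and a long gene therefore depended on the library, and values by library are given for many of the genes named. The part that length has in any single gene's spread was not tested.

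**Figure D1:**
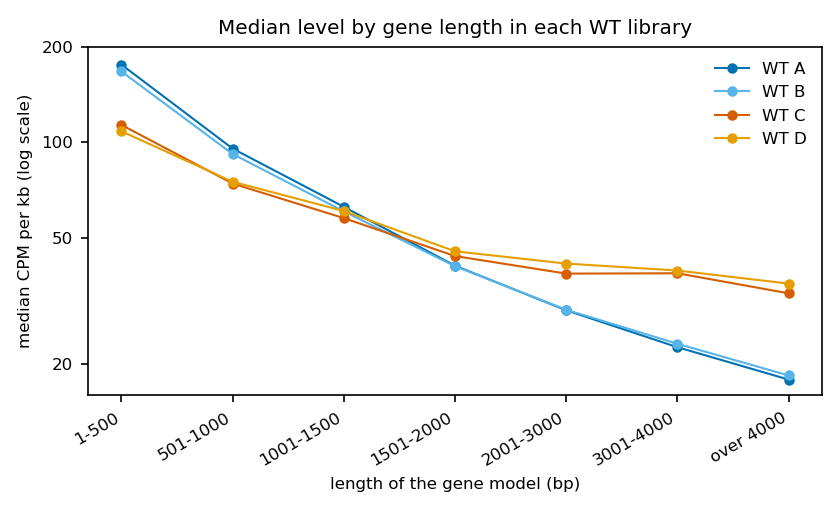
Median level (CPM per kb, log scale) of the 4561 models by length class (bp) in each WT library. The 4 lines meet near 1001 to 1500 bp, and A and B run above C and D in shorter classes and below them in longer ones.

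The cells carried the RNA of haploid a cells. MFA2, which encodes the pheromone a-factor, stood at 1095 ± 462 CPM per kb, and its values were 1529.8, 1455, 750.4 and 643. STE2, the receptor for alpha-factor, stood at 252 ± 24.3, with 278, 265, 241 and 224 in the libraries. The alpha-cell genes were low in all 4, with 3.28 ± 0.372 for STE3, the a-factor receptor, and 1.28 ± 0.377 for the pheromone gene MF(ALPHA)1, which gave only 9, 16, 20 and 38 counts. Of the 7 a-cell and 4 alpha-cell markers none was at 0 in all libraries, and the lowest a-cell marker, ASG7, at 13.3, lay at the height of the alpha-cell gene SAG1, at 13.02. The 5 markers of diploid meiosis lay between 3.01 for the kinase gene SPS1 and 16.2 for NDT80, the activator of middle sporulation genes. Of the loci mutated in W303, LEU2 stood at 710.02 ± 46.3 and URA3 at 354 ± 42.9, against 43.4 ± 1.44 for HIS3, 25.5 ± 7.16 for ADE2, 23.7 ± 4.77 for TRP1 and 63.4 ± 26.1 for CAN1, so reads were counted for all 6. Counts of reads say nothing on whether these alleles are functional. Of 4 genes known for stationary phase, SPG4 and SPG1 were low at 9.72 ± 7.25 and 5.52 ± 1.25, the pyridoxine gene SNZ1 stood at 47.7 ± 17.5 and the membrane protein gene HSP12 at 126 ± 29.1, and none of the 4 was at 0. Their summed level was 205, 197, 188 and 165 CPM per kb in A to D.

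Elongation factor 1 alpha, which brings aminoacyl-tRNA to the ribosome, had the gene of the highest mean level outside the ribosomal DNA. TEF1 (YPR080W, chromosome XVI, 700594 to 701970, plus strand) held 12087, 11598, 14579.7 and 15824 CPM per kb, and TEF2 (YBR118W, chromosome II, 477671 to 479047, plus strand) held 6742, 6638, 9877 and 10098. Both were higher in C and D than in A and B, without overlap, and in A and B the CUP1 copies and TAR1 exceeded TEF1. The pair encodes the same protein with near-identical coding sequence, so the split of reads between them is uncertain. TEF1 alone took 1.597 to 2.18% of a library's counts.

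Several glycolytic enzymes were also among the 25 highest. TDH3, a glyceraldehyde-3-phosphate dehydrogenase (YGR192C, chromosome VII, 882812 to 883810, minus strand), held 6592, 6708, 5842 and 4956 CPM per kb. The aldolase gene FBA1 (YKL060C, chromosome XI, 326408 to 327487, minus strand) held 5429, 5333, 4214 and 3662. The enolase gene ENO2 (YHR174W, chromosome VIII, 451327 to 452640, plus strand) held 4345, 4457, 4179 and 3709. All 3 were higher in A and B than in C and D, and lowest in D. The alcohol dehydrogenase gene ADH1, which makes ethanol, followed at 4155 ± 970.3, the phosphoglycerate mutase gene GPM1 at 3893 ± 1204, and the pyruvate decarboxylase gene PDC1 at 3606 ± 334. PDC1 went the other way, with 3322, 3439, 4080.2 and 3582, so that A and B were the lower libraries. CCW12, which encodes a cell wall mannoprotein, reached 3587 ± 939, and RPL41A, for the smallest protein of the large ribosomal subunit, reached 3878 ± 2121.

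By counts not divided by length, the 10 highest genes were TEF1, TEF2, PDC1, TDH3, ENO2, CDC19, FBA1, EFT1, TAR1 (in the ribosomal DNA) and PMA1. CDC19, the main pyruvate kinase, held 5044, 5180.3, 5289.5 and 4758 CPM. EFT1, for elongation factor 2, held 2709, 2539.9, 6440.4 and 7236 CPM, with C and D above A and B and a near-identical copy in EFT2. PMA1, the proton pump of the plasma membrane, held 2935, 3589, 6047 and 5393 CPM, again higher in C and D. These 10 genes took 7.16% of all counts.

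Many of the 25 highest models lay at repeated loci or overlapped another gene. The highest of all, YLR154C-G, and TAR1 lie in the ribosomal DNA on chromosome XII, as do YLR154W-A, YLR154W-B, YLR154W-E and YLR154W-F. The ribosomal DNA is a tandem array, and the sources used here do not give whether reads were assigned by strand. Their reads therefore cannot be assigned to a given transcript of this locus. The mark for a near-identical copy compares models only with each other, so TAR1 and YLR154C-G carry none despite the array. YLR154C-G held 34891, 49021, 4284 and 17989 CPM per kb and TAR1 18052, 21366, 2392 and 7457, with C the lowest library for both. The 7 models at this locus took 2.16, 2.74, 0.28 and 0.933% of counts in A to D, so that the share in C was the lowest by far. CUP1-1 and CUP1-2, the tandem copies of the metallothionein gene that binds copper, stood at 9941 ± 6333 and 11507 ± 4651, and each overlaps a second model (YHR052W-A and YHR054W-A) of like level. YKL153W, YGL123C-A and YAL037C-B lie on the opposite strand over GPM1, RPS2 (for a ribosomal protein) and CDC19, and without knowledge of the strand setting their reads cannot be told from those of these genes. In all, 13 of the 25 had a near-identical copy or overlapped another model, and 9 had no RefSeq match.

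**Figure D2:**
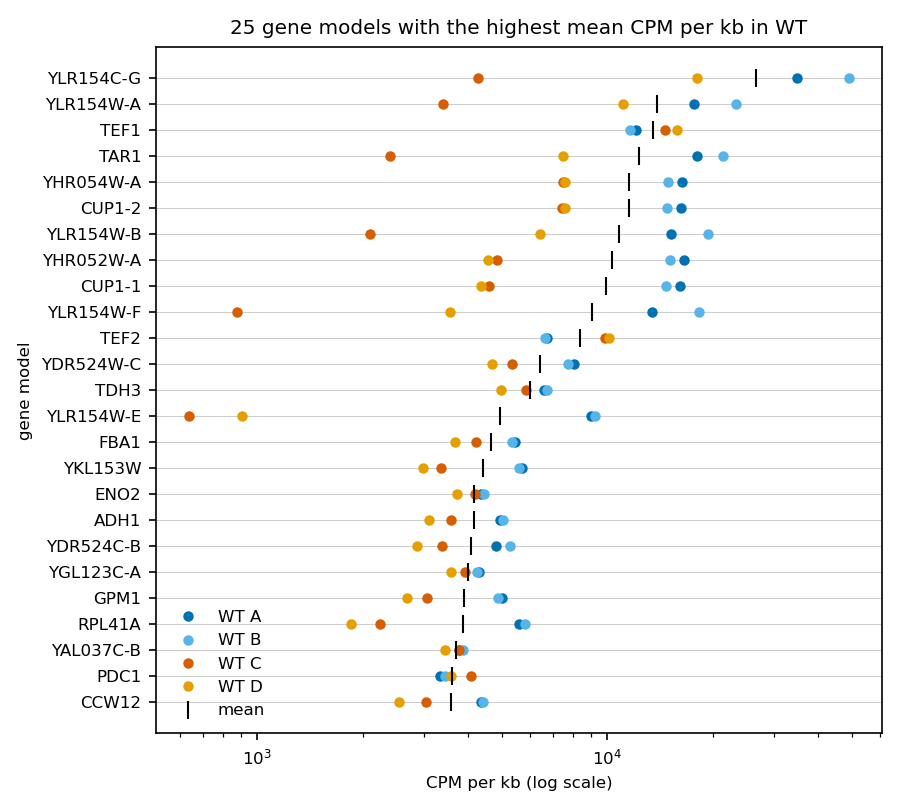
CPM per kb (log scale) of the 25 gene models with the highest mean in WT, with a point for each library and a bar for the mean. The models of the ribosomal DNA (YLR154C-G, TAR1 and the YLR154W series) spread the most, with C lowest, while the libraries lie close together for PDC1 and YAL037C-B.

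Counts were concentrated in few genes. The 18 highest models held 10.1% of counts, 504 models held 50% and 3157 held 90%. By library, 50% of counts was reached with 463, 451, 504 and 528 models in A to D. The median over all 6596 models was 52.5 CPM per kb, and the span from the fifth to the 95th percentile ran from 4.74 to 601, a 127-fold range. A mean of at least 1000 CPM was reached by 127 models and at least 100 CPM by 2211, while 190 lay under 1 CPM. Together, glycolysis, ribosomal proteins and elongation factors, 169 genes, took 22.4, 22.3, 21.0 and 19.8% of counts in A to D.

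Glycolysis and fermentation had the highest mean level of the 39 gene lists described per kb of gene span, with a median of 1573 CPM per kb. By library the list median was 1797, 1867, 1411 and 1218, against 1071, 1004, 1723 and 1671 for translation elongation factors, which were the higher list in C and D. Per kb of exon, cytosolic ribosomal proteins were higher. In glycolysis and fermentation, 18 of 21 members were above the median of all models. The 3 below it were minor isoforms, PYK2, PDC5 and PDC6. Along the pathway, hexokinase HXK2, the first step, stood at 862 ± 51.6, phosphoglucose isomerase PGI1 at 1110.3 ± 87.96, and the 2 subunits of phosphofructokinase, PFK1 and PFK2, at 429 ± 205 and 403 ± 160.4. From aldolase downward the main gene of each step was higher, from 2887 ± 388 for phosphoglycerate kinase PGK1 and 2915 ± 829.9 for triose-phosphate isomerase TPI1 up to TDH3. PFK1 and PFK2 are long genes. PFK1 held 245, 259, 618 and 595 and PFK2 252, 277, 554 and 528, both lower in A and B. Without members that have a near-identical copy or an overlap, among them TDH3, ENO2, GPM1 and CDC19, the median of glycolysis and alcoholic fermentation was 862.

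Transcripts of hexose transporters came mainly from 6 of 19 genes. HXT6 and HXT7, near-identical neighbours on chromosome IV that encode high-affinity transporters, were both abundant. HXT6 held 1820.1, 1868, 833 and 848 CPM per kb and HXT7 1500.4, 1559.6, 701 and 680.4. Both were higher in A and B than in C and D, and reads shared between them cannot be assigned. HXT2, of high affinity too, stood at 607 ± 237, HXT3, of low affinity, at 442 ± 37.8, and HXT4 at 189 ± 99.7. HXT1, the low-affinity carrier known for induction by high glucose, held 77.4, 73.2, 124 and 133, and it was lower in A and B than in C and D, whereas the other 5 were higher in A and B. The other 13 members, the galactose permease GAL2 among them, lay at 16.4, the level of the glucose sensor RGT2, or less. HXT14 held 0.8299 and HXT17, the lowest, 0.2201 ± 0.114, which rested on 14, 4, 11 and 15 counts.

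Genes for the use of other carbon sources were low. Of 20 glucose-repressed genes, 5 lay above the median of all models, and the list median was 8.81 CPM per kb. FBP1 and PCK1, the enzymes specific to gluconeogenesis, stood at 4.52 ± 1.05 and 7.11 ± 0.544. ICL1 and MLS1 of the glyoxylate cycle stood at 18.1 ± 2.77 and 3.63 ± 0.422, and the succinate-fumarate carrier gene SFC1, the lowest, at 2.72 ± 0.773. The 5 exceptions were HXT6, HXT7, MDH2 at 65.7, the invertase gene SUC2 at 57.3, and ADH2. ADH2, the alcohol dehydrogenase that consumes ethanol, held 634, 586, 28.5 and 26.3, so that A and B were far above C and D and the mean of 319 describes none of the 4 libraries. The other 4 markers of glucose repression (FBP1, PCK1, ICL1 and JEN1) held between 4.52 and 18.1 in the mean, and the most uneven of them, JEN1, held 14.4, 13.2, 8.02 and 9.44, and none was at 0. Galactose and maltose genes had a median of 9.83. GAL80, the repressor of the galactose genes, was the only member above the median of all models, at 60.7 ± 7.64, while the galactokinase gene GAL1 stood at 3.97 ± 1.16.

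Translation took the largest share of counts. All 137 cytosolic ribosomal protein genes lay above the median of all models, with a median of 868 CPM per kb, and they took 13.0, 12.9, 10.3 and 9.52% of counts in A to D. They ranged from 106 ± 43.8 for RPL15B to 3878 ± 2121 for RPL41A. Many of these genes hold introns, and per kb of exon the median was 1603, which is over 1.5 times higher. All 25 initiation factor genes lay above the median too, from 86.4 ± 31.03 for the eIF4G gene TIF4632 to 1986 ± 80.9 for the eIF4A gene TIF2, with the list median at 349.6. TIF4632 held 59.3, 60.1, 109 and 118, lower in A and B. Among elongation factors, HYP2, for eIF5A, stood at 2879.7 ± 162 and YEF3, for the fungal elongation factor 3, at 1263 ± 581. YEF3 is 3135 bp long and held 753, 770.4, 1829 and 1700.1, higher in C and D. The 18 cytosolic aminoacyl-tRNA synthetases, which charge tRNAs, ran from 218 for ALA1 to 580.4 for KRS1 in the mean. ALA1 held 119, 119.9, 314 and 319 and KRS1 502, 494, 665 and 660.003, and the highest member exceeded the lowest 4.91-fold in A and 2.37-fold in D.

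Nuclear genes in the lists of respiration and of the tricarboxylic acid cycle all lay above the median of all models. Genes outside these lists could lie below it. The ADP/ATP carrier genes AAC1 and AAC3 did so at 10.5 and 22.8 CPM per kb, whereas their paralog PET9 exceeded both. All 34 genes of the respiratory chain and ATP synthase lay above the median of all models, from 118 ± 27.1 for the internal NADH dehydrogenase NDI1 to 629 ± 246 for QCR7, a subunit of complex III, with a median of 349. All 15 genes of the tricarboxylic acid cycle did so as well, between 64.3 for KGD1 of alpha-ketoglutarate dehydrogenase and 292 for mitochondrial malate dehydrogenase MDH1. Transcripts of the mitochondrial genome, which mostly lack poly(A) tails in yeast, were scarce in these poly(A) libraries. The 28 models of that genome took 0.018, 0.0303, 0.0263 and 0.0704% of counts, with D the highest. Of its 18 named genes, OLI1, for ATP synthase subunit 9, was the highest at 40.9 ± 17.7 CPM per kb, and ATP8 gave 0, 0, 1 and 1 counts.

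Chaperones, in a list mainly of the cytosol, were mostly abundant, with 23 of 24 above the median of all models. The list also holds HSP60 and HSP10, whose products work in mitochondria. The peptidyl-prolyl isomerase gene CPR1 stood at 1943 ± 731, the ribosome-associated Hsp70 genes SSB1 and SSB2 at 1595 ± 185 and 1605 ± 240.2, and the Hsp90 gene HSC82 at 1357 ± 134. The heat-inducible Hsp70 genes SSA4 and SSA3 lay at 68.9 ± 35.5 and 14.4 ± 2.72, with SSA4 at 106, 92.5, 39.9 and 37.2 by library. The 8 subunits of the chaperonin TRiC, which folds actin and tubulin, differed little. They ran from 211 ± 2.93 for TCP1 to 258 ± 16.05 for CCT3, a 1.22-fold range in the mean and 1.22 to 1.53-fold within a library. Targets of the stress activators Msn2 and Msn4 had a median of 64.2, and ranged from 7.23 ± 4.94 for the hydrophilin SIP18 to 660.1 ± 293 for the nicotinamidase PNC1. PNC1 held 939.9, 884, 439 and 377, without overlap between A, B and C, D.

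Other complexes of known make-up differed in how even their subunits were. The 14 subunits of the 20S proteasome core spanned 2.26-fold, from 198 for PUP1 to 447 for PRE2, and the 18 of the regulatory particle 1.91-fold. Within a library the core spanned 1.82 to 3.17-fold, wider in A and B than in C and D. The 6 subunits of the MCM helicase, the motor of DNA replication, spanned 1.78-fold between 26.4 ± 2.68 for MCM2 and 47.01 ± 2.38 for MCM5. RNA polymerase II spanned 7.0-fold. Its largest subunit gene, RPO21, 5202 bp long, held 38.1, 38.5, 101 and 103, and the subunit gene of the highest level, RPB10, 213 bp long, held 505, 498, 497 and 469. The gap between RPO21 and RPB10 was thus wider in A and B than in C and D. The vacuolar proton pump spanned 16.6-fold, from 63.7 for STV1, the isoform of the Golgi, to 1056 for VMA3, a subunit of the membrane ring that is present in several copies. STV1 held 49.2, 53.9, 75.6 and 76.3 and VMA3 1057, 1107, 1079 and 982.

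Genes in the list of cell wall proteins were abundant and took 1.93% of counts. All 23 lay above the median of all models, from 121 ± 58.3 for PIR3 to CCW12. CWP2 and SED1, both for anchored wall proteins, stood at 2451 ± 453 and 2335 ± 154. The list leaves out the PAU, DAN and TIR family and the flocculins, none of which lay above that median in the mean. Among 27 plasma membrane transport genes, PMA1 was the highest at 1629 ± 533, followed by the phosphate transporter gene PHO84 at 581 ± 145 and the general amino acid permease gene GAP1 at 579 ± 94.7. PHO84 was higher in C and D and GAP1 in A and B. Of 23 genes of ergosterol synthesis, 22 lay above the median of all models, with ERG25, for a sterol oxidase, at 911 ± 127 and ERG11, the target of azoles, at 909 ± 60.5. HMG2, the minor HMG-CoA reductase, was the exception at 36.3 ± 11.3.

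Chromosome biology genes were of low abundance apart from the histones. The core histone genes lay between 768 ± 103 for HTB2 and 1705 ± 356 for HHT2, while CSE4, the histone H3 variant of centromeres, stood at 60.2 ± 6.71. Of the core histone genes, 6 have a near-identical copy and only HTB1 and HTB2 do not. None of the 14 cohesin and condensin genes and none of the 6 MCM genes lay above the median of all models. In the mean MCD1, for the kleisin of cohesin, was the highest of the former, with 42.3, 45.1, 39.1 and 41.4 by library. ECO1, for the cohesin acetyltransferase, was the lowest in the mean at 12.02 ± 3.26. These 14 genes spanned 3.49-fold in the mean and 4.47 to 5.55-fold within a library, so the highest and lowest were not the same in all 4. Among 23 kinetochore genes, 3 lay above the median of all models, CBF1, CSE4 and NSL1, and CTF13 was the lowest at 9.03 ± 2.94. The G1 cyclin genes CLN2 and CLN3 were the highest of their list in the mean. CLN2 held 56.9, 58.2, 132 and 135 and CLN3 49.4, 51.6, 132 and 141, both higher in C and D. CLB6 of S phase was the lowest in the mean at 5.62 ± 0.614. Within a library the list spanned 11.5, 13.1, 23.4 and 26.7-fold in A to D, and the lead of CLN2 and CLN3 is not claimed for A and B. In a bulk culture, fewer cells that express a gene and less RNA per cell cannot be told apart.

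Transcription factors were mostly low. Of 60 genes matched, 16 lay above the median of all models, and the list median was 34.7. GCN4, the activator of amino acid synthesis genes whose mRNA is under translational control, was the exception at 1147, 1187, 1371 and 1282 by library, and the next gene was TYE7, an activator of glycolytic genes, at 242 ± 16.2. CAT8, the activator of gluconeogenesis, was the lowest at 5.85 ± 0.4197.

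**Figure D3:**
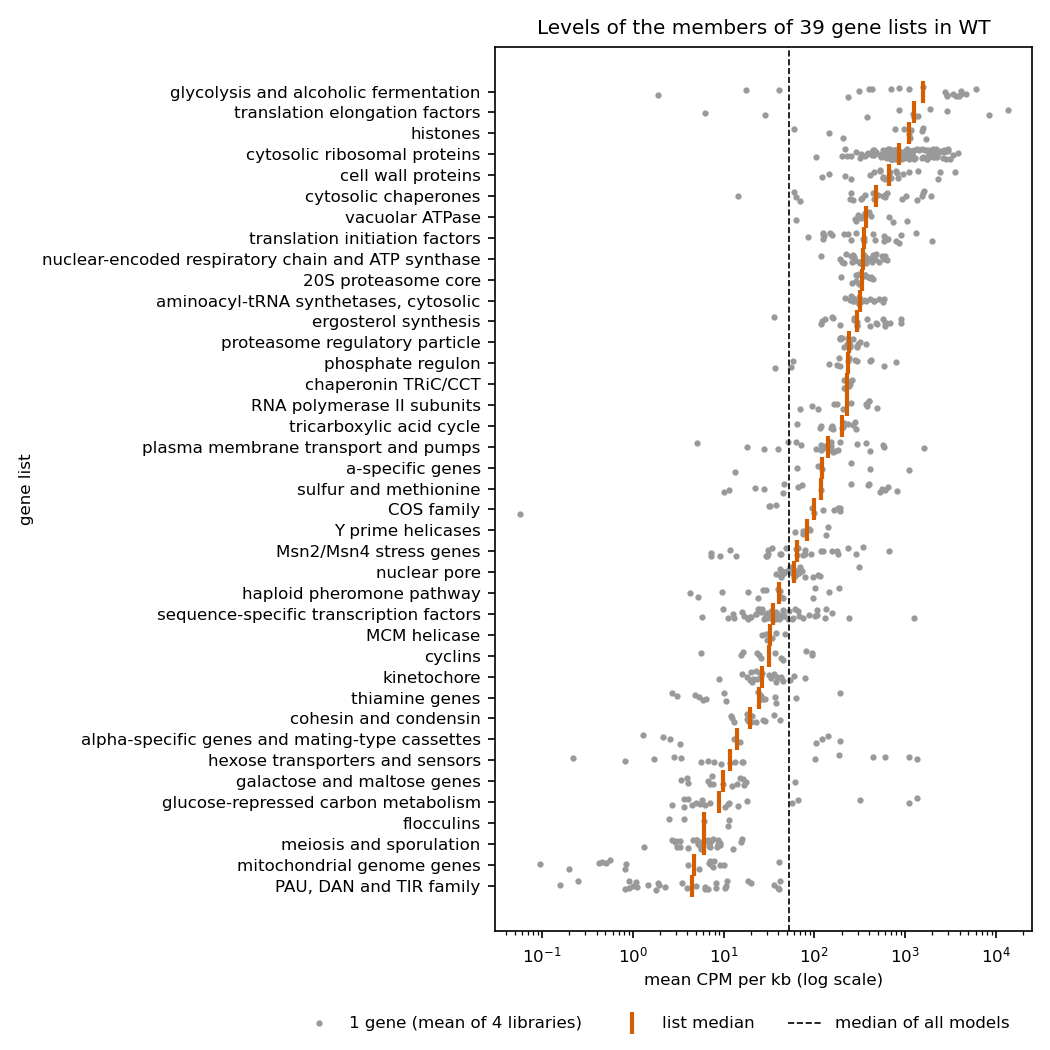
Mean CPM per kb (log scale) of each member of the 39 gene lists in WT, with the list median in orange and the median of all 6596 models, 52.5, as a dashed line. Glycolysis and elongation factors hold the highest medians, each with a few very low isoforms, and the PAU, DAN and TIR family and the mitochondrial genome hold the lowest.

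Genes of meiosis, flocculation and the PAU, DAN and TIR family were low. The 30 genes of meiosis and sporulation all lay below the median of all models, between 1.34 ± 0.311 for OSW1 and 16.2 ± 5.03 for NDT80. The 30 PAU, DAN and TIR genes, cell wall mannoproteins known for expression without oxygen, had a median of 4.47, and 24 of them had a near-identical copy. PAU14 was the highest in the mean at 42.3 ± 4.75 and PAU19 the lowest at 0.157 ± 0.123. TIR1 held 12.8, 17.4, 27.7 and 103 CPM per kb, and in D it was above PAU14 and above the median of all models. The 5 flocculin genes lay between 2.54 ± 0.729 for FLO11 and 11.6 ± 0.389 for FLO9. The COS genes, a family of membrane proteins encoded near chromosome ends, were higher, with 7 of 11 above the median of all models and COS2 at 193 ± 51.8. COS12 was the lowest, on 2, 0, 1 and 6 counts.

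Few models were silent at this depth. In 25 models each library held 3 counts or fewer, and in 4 of these, all mitochondrial reading frames without a RefSeq match, every library held 0. Of the 25, 9 lay in the mitochondrial genome, which holds 28 of all 6596 models. Another 14 lay within 20 kb of a chromosome end, where 4.82% of all models lie. A near-identical copy was marked in 8 of the 25, against 407 of the 6596, and 6 matched RefSeq, against 5914. The 6 were PAU19, ATP8, YAL067W-A, YBR298C-A, YGL262W and YNR071C. YNR071C (chromosome XIV, 770440 to 771468, minus strand) held 1, 2, 1 and 3 counts over 1029 bp. Only 3 of the 25 matched RefSeq with no copy and no overlap, against 4968 such models in all. No model with a gene name was at 0 in all 4 libraries.

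Paralogs were compared in 63 families of metabolism, translation, chaperones, chromatin, signalling and transport, which gave 76 pairs of the highest member with another. The order was the same in all 4 libraries for 65 pairs. In 25 pairs the higher member exceeded the lower more than 10-fold, in 25 by 2 to 10-fold, and in 26 by 2-fold or less. Where neither is marked as having a near-identical copy, more of the reads can be told apart. Such members can still share near-identical stretches, as PDC1 and PDC5 do in the sequences below. How many reads were assigned to the wrong member was not tested.

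The widest pair was that of pyruvate decarboxylase, the step that commits pyruvate to ethanol. PDC1 (YLR044C, chromosome XII, 232390 to 234081, minus strand) held 3322, 3439, 4080.2 and 3582 CPM per kb, PDC5 (YLR134W, chromosome XII, 410723 to 412414, plus strand) 15.4, 12.6, 19.2 and 23.03 and PDC6 (YGR087C, chromosome VII, 651290 to 652981, minus strand) 2.303, 1.71, 1.93 and 1.74. PDC1 exceeded PDC5 205-fold, and 156 to 274-fold by library, and PDC6 1879-fold, and 1443 to 2118-fold by library, although their proteins are 87.9 and 84.01% identical to that of PDC1. Among pyruvate kinases, CDC19 (YAL038W, chromosome I, 71786 to 73288, plus strand) exceeded PYK2 (YOR347C, chromosome XV, 984942 to 986462, minus strand) 81.6-fold, and 63.6 to 115-fold by library. The proton pump gene PMA1 exceeded PMA2, whose product is 87.01% identical, 319-fold, and 258 to 428-fold by library, and YEF3 exceeded HEF3, 83.8% identical, 201-fold, and 141 to 257-fold by library. None of these ranges came near 1, so the libraries differed in the size of the ratio and not in its order.

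Branches off glycolysis showed the same kind of pattern. GND1, for 6-phosphogluconate dehydrogenase of the pentose phosphate pathway, exceeded GND2 67.2-fold, the transketolase gene TKL1 exceeded TKL2 84.5-fold, and the transaldolase gene TAL1 exceeded NQM1 49.8-fold. ACS2, the acetyl-CoA synthetase used in glucose, exceeded ACS1 38.2-fold, and GDH1, for glutamate dehydrogenase, exceeded GDH3 55.3-fold. The glycerol phosphatase gene GPP1 exceeded GPP2 8.69-fold, whereas the glycerol-3-phosphate dehydrogenase genes GPD1 and GPD2 differed 1.44-fold in the mean, with ratios of 0.946 to 2.17 by library. Isoforms known for use in air exceeded those known for use without oxygen. HYP2 exceeded ANB1 101-fold (both have near-identical stretches), the ADP/ATP carrier gene PET9 exceeded AAC3 26.5-fold, CYC1 exceeded CYC7 4.08-fold, and COX5A exceeded COX5B 2.41-fold.

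Alcohol dehydrogenases were the exception in stability. The log2 ratio of ADH1 over ADH2 was 2.96, 3.10, 6.97 and 6.88 in A to D, the widest shift of the 76 pairs. ADH1 exceeded the mitochondrial ADH3 10.9-fold, and 7.86 to 14.1-fold by library, and ADH5 47.9-fold, and 41.5 to 58.2-fold by library. SSA2 over SSA4 shifted next most, at 10.1 to 52.6-fold.

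Some pairs were close. The TOR kinase genes TOR1 and TOR2 stood at 15.3 ± 3.79 and 15.1 ± 6.64, the phosphofructokinase subunits PFK1 and PFK2 at 429 and 403, and the 2 SSB genes at 1605 and 1595. For each of these the ratio fell on both sides of 1 over the libraries, at 0.865 to 1.297 for TOR1 over TOR2, so no order was resolved. Citrate synthase CIT1 of mitochondria and CIT2 of peroxisomes differed 1.09-fold in the mean, with 0.977 to 1.23 by library. Histone copies differed 1.47-fold for H2B (HTB1 over HTB2), with the same order in all 4. Among signalling genes the Ras gene RAS2 exceeded RAS1 2.5-fold, the 14-3-3 gene BMH1 exceeded BMH2 4.99-fold, and the G1 cyclin gene CLN2 exceeded CLN1 2.11-fold, at 1.34 to 2.69 by library.

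**Figure D4:**
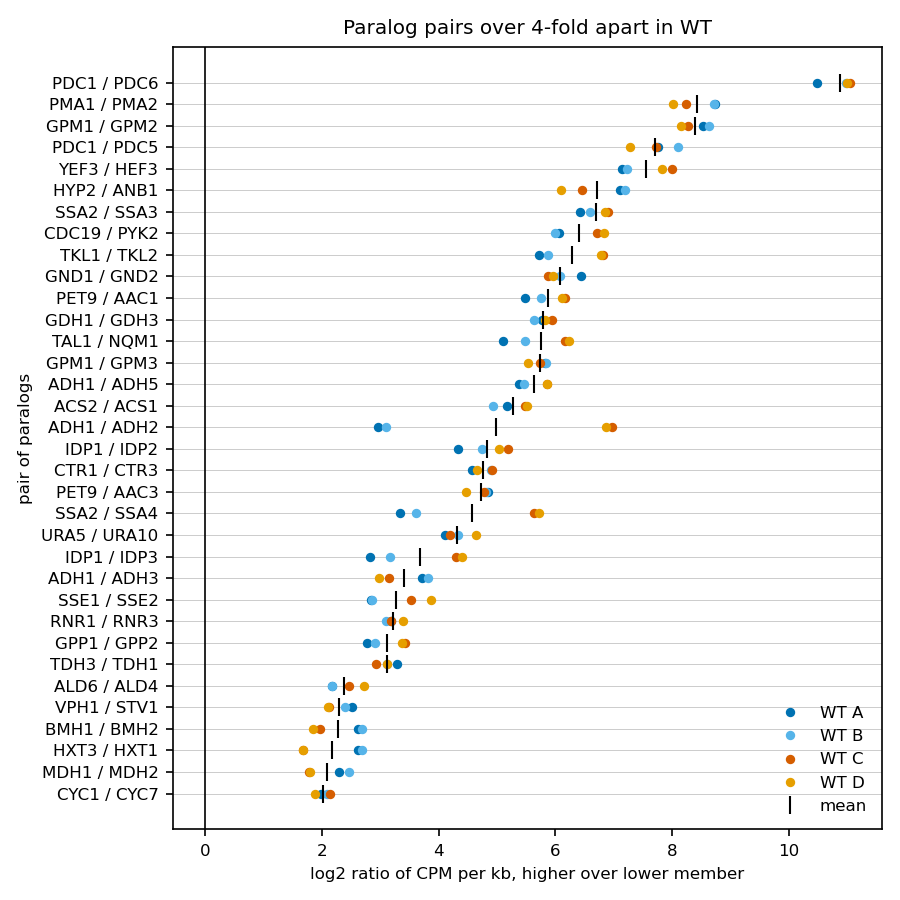
Log2 ratio of CPM per kb, higher over lower member, for the pairs of paralogs over 4-fold apart in WT, with a point for each library and a bar for the mean. PDC1 over PDC6 is the widest, and ADH1 over ADH2 the one whose libraries lie farthest apart, with A and B near 3 and C and D near 7.

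Codon use differed between the members of these pairs. Preferred codons were taken as the commonest codon of each amino acid in the genes of cytosolic ribosomal proteins, and a gene's share of them was counted without methionine and tryptophan. The stretch from codon 101 to codon 140 shows the difference for the pyruvate decarboxylases, the pyruvate kinases and elongation factor 3. The sequences are of the coding strand, 5′ to 3′, from the RefSeq genome of build R64, which is that of the reference strain and not of W303, with preferred codons in capitals.
PDC1 (chrXII:233662-233781, minus strand): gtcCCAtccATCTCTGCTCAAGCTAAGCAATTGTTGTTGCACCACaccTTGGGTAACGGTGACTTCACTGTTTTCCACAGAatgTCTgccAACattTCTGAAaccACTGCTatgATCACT
PDC5 (chrXII:411023-411142, plus strand): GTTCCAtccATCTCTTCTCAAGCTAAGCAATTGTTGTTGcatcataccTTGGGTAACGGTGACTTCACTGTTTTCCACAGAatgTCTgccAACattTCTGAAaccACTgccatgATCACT
PDC6 (chrVII:652562-652681, minus strand): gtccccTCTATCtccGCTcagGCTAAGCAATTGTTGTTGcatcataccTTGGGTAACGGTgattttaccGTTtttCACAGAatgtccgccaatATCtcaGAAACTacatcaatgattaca
CDC19 (chrI:72086-72205, plus strand): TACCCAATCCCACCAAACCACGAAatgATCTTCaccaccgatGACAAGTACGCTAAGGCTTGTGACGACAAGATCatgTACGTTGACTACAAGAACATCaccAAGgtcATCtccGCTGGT
PYK2 (chrXV:986043-986162, minus strand): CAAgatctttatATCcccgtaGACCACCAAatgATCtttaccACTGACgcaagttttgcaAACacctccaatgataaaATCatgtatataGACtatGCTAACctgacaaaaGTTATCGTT
YEF3 (chrXII:637080-637199, plus strand): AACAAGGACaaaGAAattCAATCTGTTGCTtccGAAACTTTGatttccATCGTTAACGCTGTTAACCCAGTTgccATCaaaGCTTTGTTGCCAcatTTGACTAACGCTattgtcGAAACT
HEF3 (chrXIV:606619-606738, plus strand): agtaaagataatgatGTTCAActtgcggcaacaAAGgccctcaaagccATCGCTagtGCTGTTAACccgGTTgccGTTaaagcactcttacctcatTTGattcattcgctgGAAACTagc
In this stretch PDC1 had 32 preferred codons of 40, PDC5 30 and PDC6 19, CDC19 had 32 against 16 in PYK2, and YEF3 had 30 against 13 in HEF3. Over the whole gene the share was 79.7% in PDC1, 74.2% in PDC5 and 43.2% in PDC6, 77.5% in CDC19 and 40.9% in PYK2, and 77.1% in YEF3 and 42.3% in HEF3. PDC5 kept a share close to that of PDC1 with an mRNA level 205-fold lower. Of 75 pairs with coding sequence for both, the higher member had the larger share in 59. Of the 33 pairs at least 4-fold apart it did so in 32, with a median gap of 21.7 percentage points. The pair that did not was CTR1 and CTR3, copper transporters of unlike sequence, at 35.3 and 37.7%. Of the 26 pairs under 2-fold it did so in 13, with a median gap of 0.1 points.

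Across 4898 genes with a RefSeq match, no copy and no overlap, ribosomal protein genes left out since they defined the codons, the share of preferred codons and the level per kb had a Spearman's rho of 0.53, and of 0.48 to 0.56 in single libraries. Genes are not independent replicates, and this is a description. Over deciles of level, from the lowest to the highest, the median share stayed between 36.0 and 37.4% in deciles 1 to 5 and reached 42.7% in decile 9 and 50.7% in decile 10, so the relation lay mostly among the more abundant mRNAs. The effective number of codons, where a low value means strong bias, had a rho of -0.39 over 4684 genes. Coding length had a rho of -0.26, which was -0.35 in A and -0.15 in D, the split between libraries again. GC content of the coding sequence had a rho of 0.25.

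**Figure D5:**
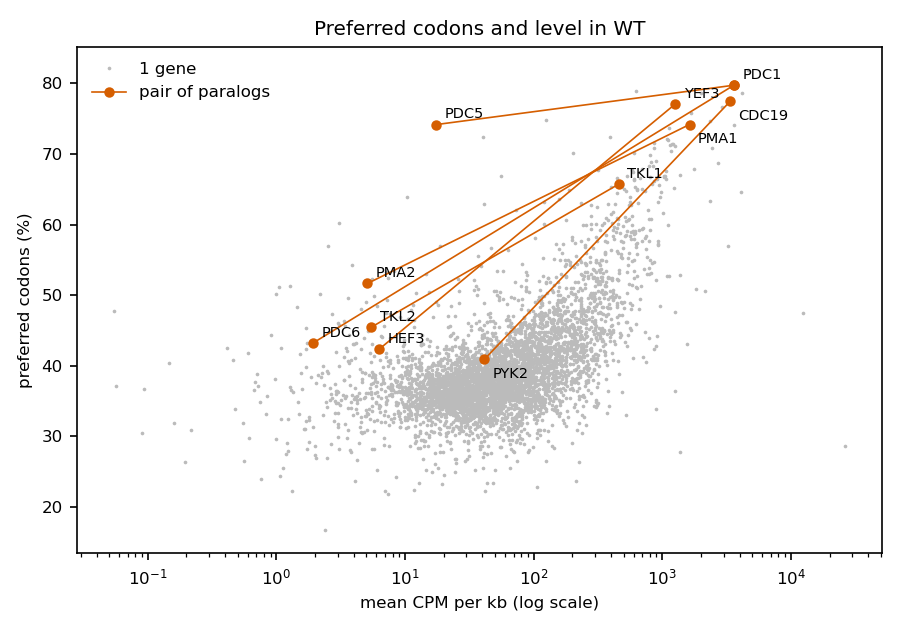
Share of preferred codons (%) against mean CPM per kb (log scale) for 4898 genes in WT, with 6 pairs of paralogs joined by lines. The grey cloud is flat below about 100 CPM per kb and rises above it, and PDC5 sits far above genes of its level.

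Ribosomal protein paralogs were mostly close. Over 59 A and B pairs the median ratio of the higher to the lower was 1.30-fold, against 2.76-fold over the 76 pairs above, and 49 pairs were within 2-fold. The A copy was the higher in 28. RPL15A exceeded RPL15B 28.2-fold, and 25.5 to 36.5-fold by library, and RPS22A exceeded RPS22B 9.59-fold, and 8.42 to 10.1-fold by library, and no other pair was past 5-fold in the mean. In 48 pairs a near-identical copy leaves the split of reads uncertain. Introns count as length in the values above. Taken per kb of exon, RPP1A over RPP1B went from 1.45 to 0.49 in log2, and RPS27A over RPS27B, which was not resolved, turned from 0.07 to -0.34. Models whose coding sequence is in several pieces in RefSeq, which is not always due to an intron, numbered 274 and took 9.15% of counts. Of all counts, 6.27% came from the 89 of them that encode ribosomal proteins.

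Levels varied little with position except near chromosome ends. Over 4948 genes, the distance to the nearest end had a Spearman's rho of 0.058 with the level per kb. Within 10 kb of a chromosome end the median of 30 genes with no copy and no overlap was 13.6 CPM per kb and 20% lay under 1 CPM. For the 3819 genes over 100 kb away the values were 54.3 and 1.41%. At 10 to 20, 20 to 30, 30 to 50 and 50 to 100 kb the medians were 36.8, 33.3, 43.2 and 49.7. In the 500 bases before the start codon, read on both strands, TATAAA was found in 60.4% of 4948 genes, in 65.5% of decile 1 by level and in 66.5% of decile 10. TTACCCG, the core of the site of the factor Reb1, was found in 10.7% of all, 5.25% of decile 1 and 15.4% of decile 10. GATGAG, the core of the PAC element of ribosome assembly genes, was found in 27.7% of all, 21.6% of decile 1 and 29.3% of decile 10, and CACGTG, the E box, in 6.33, 4.85 and 8.89%. ACCCATAC, the core of the site of Rap1, was found in 1.56% of all and in 21.0% of 124 ribosomal protein genes (26 genes). None of these motifs is contained in another, and a match describes these letters in this window and is not a site.

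The spread between libraries came mainly from the split of A and B from C and D. Across the split, 560 to 765 of the 5811 models with a mean of at least 10 CPM differed more than 2-fold between 2 libraries. Only 1 did so between A and B and 15 between C and D. Over the 5811 models with a mean of at least 10 CPM, the SD of log2 CPM had a median of 0.26, the middle 50% of models lay between 0.14 and 0.43, and 56 models were above 1. Over the 4561 models with a RefSeq match, no near-identical copy and no overlap, the median was 0.36 in models up to 500 bp, 0.19 in those of 1001 to 1500 bp and 0.57 in those over 4000 bp.

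The steadiest gene was THS1, the threonyl-tRNA synthetase, at 1149, 1154, 1139 and 1137 CPM. TIM44, of the mitochondrial import motor, held 209, 212, 208 and 212, and NOP15, of ribosome assembly, 198, 194, 197 and 199. DYS1, the deoxyhypusine synthase that modifies eIF5A, held 333, 328, 323 and 327, and TCP1 of the chaperonin 353, 358, 348 and 359. TAE1 (a methyltransferase of ribosomal proteins), PGA1 (of GPI anchor synthesis), LSC1 (succinyl-CoA ligase), FLD1 (seipin) and LAP2 (an aminopeptidase) completed the 10, with an SD of log2 CPM of 0.017 to 0.021, and the set had levels from 26.1 ± 0.369 to 1145 ± 8.24 CPM.

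The 10 most variable genes had an SD of log2 CPM from 1.16 to 2.58. ADH2 held 664, 614, 29.9 and 27.6 CPM. MPC3, a subunit of the mitochondrial pyruvate carrier, held 34.5, 28.04, 1.88 and 1.8997, and BTN2, which sorts misfolded proteins, 529.9, 421, 35.7 and 45.4. All 3 were far higher in A and B than in C and D. HOR7, a small protein induced by salt, held 928, 952, 242 and 209.9, and COX26, of cytochrome oxidase, 32.1, 24.6, 7.12 and 6.51, again with A and B high. UTP20, for ribosome assembly and 7482 bp long, held 119.5, 127, 490.3 and 503, with C and D high. PRM7 and BSC1, next to each other on the minus strand of chromosome IV, held 64.1, 73.9, 355 and 394 and 30.003, 34.6, 165 and 195, with C and D high in both. TIR1, a cell wall mannoprotein, held 9.81, 13.3, 21.2 and 78.9, and D alone was far above the others. TAR1 of the ribosomal DNA was described above, with C low, and it is here only because it carries no copy mark.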

How the data were processed

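The deposited table holds read counts per gene model for 8 samples, of which the 4 WT columns were used. The submitters' processing notes name STAR 2.5.3a, featureCounts 1.6.0, Trim Galore 0.4.3, bcl2fastq 2.9, Picard and build R64, with no role given. Not given in the sources used here were the strand setting of the counting and its treatment of reads with several matches, so the split of reads between near-identical genes and between overlapping genes is uncertain. The table also holds 4 empty lines, which were dropped.

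From these counts CPM was computed over the total of the table, and CPM per kb over End minus Start plus 1. A model was marked as having a near-identical copy by its BLASTN 2.17.0 alignments to other models. The mark needed an alignment of at least 100 bp with at least 90% identity over its whole length. A near-identical stretch within a longer, less alike alignment was not marked. Gene names, coding sequence and introns came from RefSeq on R64, which matched 5914 of the 6596 models, 5885 with the same coordinates. Spread was the SD of log2(CPM + 0.1) for models with a mean of at least 10 CPM. Dispersion and scaling factors were taken with edgeR 4.0.16 in R 4.3.3 on the counts as deposited. The biological coefficient of variation was 0.258, and the TMM factors were 0.981 to 1.02. All else used Python 3.11.15, numpy 2.4.6, pandas 2.3.3 and scipy 1.17.1, and figures matplotlib 3.10.9. The script for the spread was tested on simulated counts.

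With 1 group no test was run. Genes were named by rule, namely the 25 highest by CPM per kb and 10 by CPM, the ends of each list, all paralogs and markers, and the 10 most and least variable named genes with no copy and no overlap. Other list members were chosen as examples after their values were seen. The gene lists and the paralog families were chosen with earlier results of these data known. Alternatives changed the scaling (TMM, RLE), the length (exons), the filters and the libraries included.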

Additional observations from a re-analysis of the deposited data

Results flagged for a closer look

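In 2 of the 260 named genes a library was flagged against the other 3 of WT by Dixon's ratio of the gap to the range. Chance flags about 1 in 20 groups, so these 2 are fewer than chance gives. TIR1 was also among the 10 genes named for the largest spread in these same libraries, so its flag adds no separate evidence. CCT3, for a subunit of the chaperonin TRiC, had a ratio of 0.9331, with 452 CPM in A against 399.7, 399 and 403 in B to D. TIR1, for a cell wall mannoprotein, had a ratio of 0.8351, with 78.9 CPM in D against 9.81, 13.3 and 21.2 in A to C. The cause was not tested.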

How the results depend on the processing

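Over the alternatives run, a sign changed only in 9 paralog ratios, SSB2 over SSB1, YPK2 over YPK1 and 7 of ribosomal proteins, whose libraries lay on both sides of 1. The number of silent models depended on its definition. Against 25 with 3 counts or fewer in each library, 4 had 0 counts in each, 55 had fewer than 10 counts in each, and 3 were left among models with a RefSeq match, no near-identical copy and no overlap. Leaving out a library gave 28 to 30. The 504 models that held 50% of counts were 504 without the mitochondrial genome, 518 without the ribosomal DNA (an alternative chosen after seeing the data), and 487 to 515 on leaving out a library. The median SD of log2 CPM, 0.26, ranged from 0.25 to 0.28 over its 8 alternatives. TMM and RLE scaling moved none of the 260 named levels by more than 1 SD, and exon length moved 3. Exon length also moved 17 of 135 paralog ratios, all of ribosomal proteins. Exon length moved 2 list medians, that of cytosolic ribosomal proteins from 868 to 1603 and that of the vacuolar ATPase from 368 to 380, and leaving out a library moved 5, none by more than 1.5 times. Without near-identical copies and overlaps, 15 of 38 list medians moved, that of the list histones from 1119 to 209, of the list COS family from 100 to 35.6, and of the list PAU, DAN and TIR family from 4.47 to 10.4. All Y prime helicases have copies, so that list then had no value. The level of TIR1 was 40.3 CPM per kb with all libraries and 19.3 without D. No paired analysis was possible because the WT libraries form a single group. Depth limits mainly the models under 1 CPM, where each library holds few counts.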

Other observations

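Nutrient genes were uneven within their pathways. In the list of sulfur and methionine genes, S-adenosylhomocysteine hydrolase SAH1 stood at 821 ± 120.3 CPM per kb, cystathionine beta-synthase CYS4 at 606 ± 44.3 and methionine synthase MET6 at 393 ± 212, whereas the sulfate permease genes SUL1 and SUL2 stood at 10.1 ± 2.84 and 11.4 ± 4.49. MET6 held 203, 216, 566 and 586 in A to D. Of the 15 genes of the phosphate regulon, 14 lay above the median of all models, among them the acid phosphatase gene PHO5 at 207, 186, 388 and 336 by library and the polyphosphate synthase subunit gene VTC1 at 793 ± 136. PHO89, a sodium-coupled phosphate transporter, was the lowest at 36.8 ± 9.56. Thiamine genes were low, with THI4, for thiazole synthesis, at 3.07 ± 1.15, and only THI80 and PHO3 of 18 above the median of all models.

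The pheromone pathway was expressed unevenly too. The G protein subunit genes STE18, STE4 and GPA1 stood at 186 ± 71.3, 144 ± 4.17 and 97.998 ± 8.99, while genes known for induction by pheromone were lower, with FUS1 at 9.66 ± 5.001, FUS2 at 4.26 ± 0.709 and PRM1 at 5.17 ± 0.327. The build carries the alpha allele at the mating-type locus. The models MATALPHA2 and HMLALPHA2 stood at 141 ± 48.6 and 121 ± 32.99, against 2.54 ± 1.66 and 2.16 ± 1.36 for MATALPHA1 and HMLALPHA1. All 4 have near-identical copies elsewhere, so the source locus of these reads is uncertain. Of 27 nuclear pore genes, 17 lay above the median of all models, and SEC13, which is also a subunit of the COPII coat, was the highest at 310.3 ± 28.1. The 8 models of Y prime helicases, repeated at chromosome ends, had medians of 46.8, 52.9, 113 and 118 in A to D.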
